A study of Mus musculus with 2 samples.

Results

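Integrins, laminins and the proteins that tie them together hold a cell to its basement membrane, and 51 genes of this system were followed from brown preadipocytes to brown adipocytes. The members were chosen by a rule on gene symbols that uses no value. They are the integrin alpha and beta subunits, the laminin chains, the nidogens, perlecan (Hspg2), agrin (Agrn), dystroglycan (Dag1) and the integrin adaptors of the ILK, PINCH, parvin, kindlin and talin families. They are 51 of the 23361 genes with values in both libraries.

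RNA-Seq was performed with 1 library at D0 and 1 library at D7. Both libraries came from cells of the interscapular brown adipose tissue of newborn C57BL/6 mice, and no genetic change separated them. Per the labels, cells spent 4 days in a medium with 10% serum, T3 (1 nM) and insulin (0.1 μM) before induction, and D0 is the stage before the inducers. For D7 they then received IBMX (0.5 mM), indomethacin (0.125 mM) and dexamethasone (2 μg/ml) for a limited time, followed by the medium alone. The methods give other doses of insulin and dexamethasone than the labels, whose doses are printed here. The labels call the cells primary cultures, whereas the methods describe a line immortalized with large T. Pooling of animals is not described for these libraries.

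Values are FPKM, a fragment count scaled by transcript length in kb and by depth in units of 1000000 reads, which can be compared between genes because they are per length. Without replicate cultures no p-value was computed, and differences compare the libraries rather than the stages. A gene was called higher or lower at D7 at a ratio reaching 2.0 or above, or 0.5 or below. Brackets after a ratio give its exact 95% Clopper-Pearson interval on the fragments behind it, which covers counting error only. A count of 0 allows up to 3 fragments. A lower FPKM in bulk RNA cannot tell fewer cells of a type from less RNA per cell.

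The libraries rested on about 21471087 fragments at D0 and 18265372 at D7. Of 10 adipocyte markers, 7 were above 0 in both libraries and all 7 were higher at D7. The summed FPKM of the 10 was 36.8 at D0 against 16676 at D7, and Cidea, Ucp1 and Elovl3 were listed at 0 at D0. Smooth muscle and pericyte markers had a summed FPKM of 2490 at D0 against 377 at D7, of which Acta2 made up 2164 and 319. Of these 6 markers, 3 were lower and 1, Rgs5, was higher, at 0.571 and 1.65. Over all genes above 0 in both libraries, 18.5% were higher and 13.2% were lower. Defining markers of skeletal muscle (Myod1, Myf5, Pax7) and of epithelium (Epcam, Krt14, Krt8) were listed at 0 in both libraries.

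Integrins are pairs of 1 alpha and 1 beta subunit. The alpha subunit largely sets the ligand, which can be fibronectin and other proteins with an RGD motif, collagen, laminin or a receptor on another cell. Inside the cell, talins and kindlins bind the beta tail, and the complex of ILK, PINCH and parvin links it to actin. Mature adipocytes are each wrapped in a basement membrane of laminin, type IV collagen, nidogen and perlecan, whereas their precursors spread on fibronectin and fibrillar collagen.

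Of the 51 genes, 47 were above 0 in both libraries. At D7, 12 of these were higher by at least 2.0-fold and 8 were lower, which is 25.5% and 17.0%. Over all 14986 genes above 0 in both libraries, 18.5% were higher and 13.2% were lower. Of the calls among members, 5 higher and 3 lower were of genes under FPKM 1 in both libraries. FPKM reached 1 in a library for 37 genes, 36 of them above 0 in both. Among these 36, 7 were higher (19.4%) and 5 were lower (13.9%), beside 15.6% and 11.9% of the 11967 genes of the same kind. The median log2 ratio of the 47 genes was -0.18 and that of all genes 0.02. When every FPKM was raised to at least 0.01 and each library was divided by its median, log2 ratios of genes above that floor shifted by -0.35. The calls, then of all 51 genes rather than 47, changed from 12 higher and 8 lower to 11 higher and 12 lower. The share of calls that were higher changed from 60.0% to 47.8%, beside 58.3% and 42.5% over all genes.

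**Figure D1:**
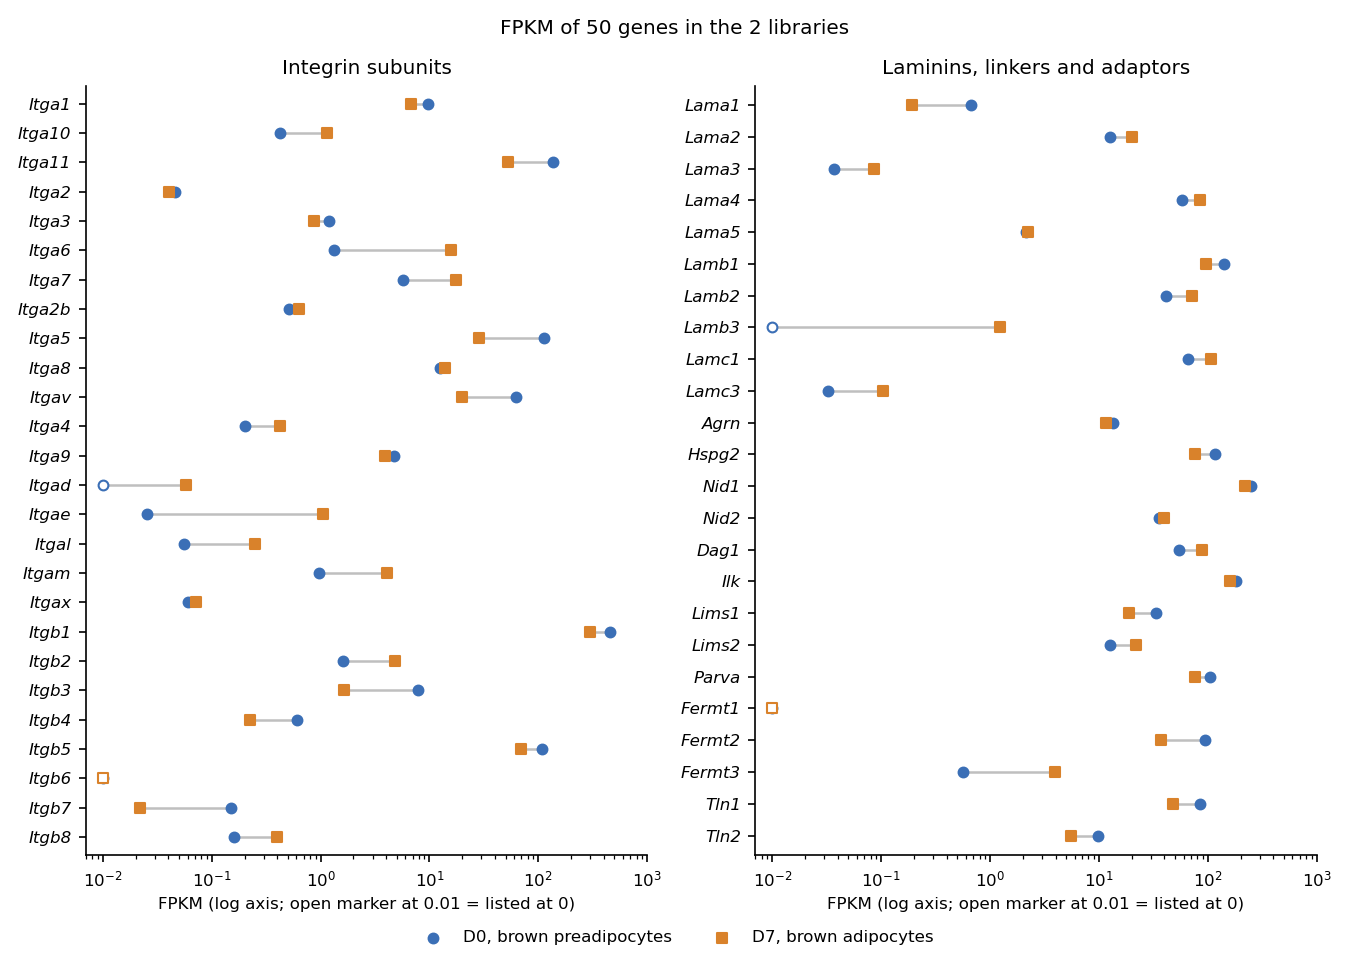
FPKM on a log axis of 50 of the 51 genes at D0 (circles) and D7 (squares), 1 library per stage, with integrin subunits on the left. Open markers stand for genes listed at 0. Itga6 moved from 1.33 to 15.6, whereas Itga5 moved from 112 to 28.7.

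**Figure D2:**
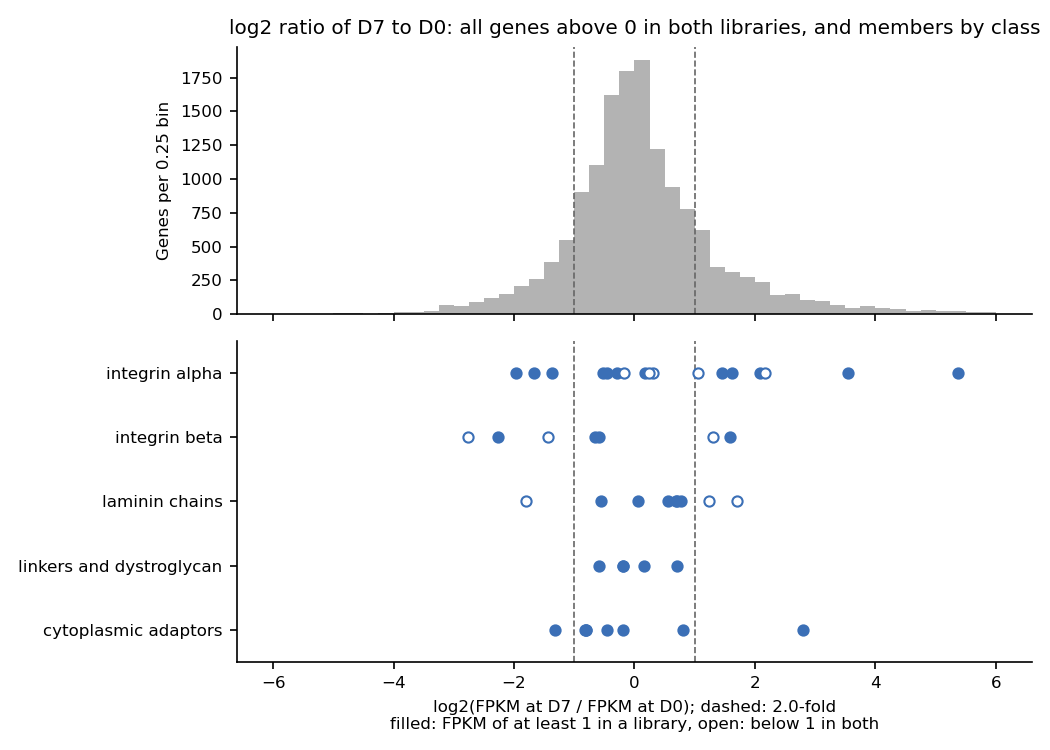
Number of genes per bin of the log2 ratio of D7 to D0 for genes above 0 in both libraries (top; 118 genes lie beyond the axis), and each of 46 members in its class (bottom). Integrin alpha subunits spread from -1.96 to 5.37, and linkers and dystroglycan stayed between the dashed lines at 2.0-fold.

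Of the 4 alpha subunits that bind RGD ligands, Itga5 and Itgav, the most abundant, were lower at D7. Itga5 (ENSMUSG00000000555.8, mm10 chromosome 15, 103344286 to 103366763), which forms the main fibronectin receptor with Itgb1, stood at 112 FPKM at D0 against 28.7 at D7. Its ratio was 0.257 (0.245 to 0.269). Itgav (ENSMUSG00000027087.11, chromosome 2, 83724397 to 83806916), the partner of several beta subunits in receptors for vitronectin and for latent TGF-beta, stood at 63.0 FPKM at D0 against 19.7 at D7. Its ratio was 0.313 (0.299 to 0.327). Both were thus lower by a similar factor, with intervals that do not overlap. Itga8, which binds nephronectin, did not share this difference, at 12.5 and 14.02 (ratio 1.12, 1.05 to 1.21). Its ratio turned below 1 under the division by library medians. Itga2b, the alpha subunit of platelets, was under FPKM 1 in both libraries (0.515 and 0.639), and its interval from 0.766 to 2.02 includes 1. Of 6 platelet markers, 3 were listed at 0 in both libraries, Gp9, Gp6 and Treml1. The others differed in direction, with Pf4 at 1.14 and 10.4, Gp1ba at 0.237 and 0.537 and Ppbp at 1.34 and 0. Their part in Itga2b was not tested.

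Most ligands of these and other integrins were lower as well. Of 16 ligand genes, 14 were above 0 in both libraries, of which 11 were lower and 0 higher by at least 2.0-fold, beside 13.2% and 18.5% of all genes. Vitronectin (Vtn) among the 11 had about 4 fragments and 1 fragment, with an interval that includes 1. The median log2 ratio of the list was -1.46. This list, like the other lists here, was chosen with earlier results of these data known. Tenascin C (Tnc) stood at 604 FPKM at D0 against 31.0 at D7 (ratio 0.0513, 0.0497 to 0.0530). Ctgf had a ratio of 0.212 (0.206 to 0.219). Fibronectin (Fn1) stood at 1210 FPKM at D0 against 337 at D7 (ratio 0.279, 0.276 to 0.281), close to that of its receptor subunit Itga5. The summed FPKM of the list was 8203 at D0 against 2933 at D7.

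Upstream sequence is shown for members past 2.0-fold that reached FPKM 1 in a library and whose window held no annotated exon, so that the called genes can be set beside the factor family the study examined. RefSeq windows on GRCm38.p6 matched 33 of the 51 genes, with 41 windows in all. Itga6, Itga7, Itgb2, Itgb3 and Itgae, also past 2.0-fold with FPKM of at least 1 in a library, had no window. Each run is the 250 bases before the start, 5′ to 3′ on the strand of the gene. The bases after the start were found in an annotated transcript of the gene for 35 of the 41 windows, but not for Itga5. Capitals mark CACCC or its reverse complement GGGTG, the core of boxes bound by KLF factors. The windows are chr15:103366792-103367041, minus strand, for Itga5 and chr2:83724147-83724396, plus strand, for Itgav.
Itga5: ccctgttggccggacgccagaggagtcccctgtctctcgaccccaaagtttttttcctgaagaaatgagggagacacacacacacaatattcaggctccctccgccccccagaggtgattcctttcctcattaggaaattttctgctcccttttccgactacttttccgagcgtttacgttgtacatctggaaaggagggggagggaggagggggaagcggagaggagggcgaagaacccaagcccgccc
Itgav: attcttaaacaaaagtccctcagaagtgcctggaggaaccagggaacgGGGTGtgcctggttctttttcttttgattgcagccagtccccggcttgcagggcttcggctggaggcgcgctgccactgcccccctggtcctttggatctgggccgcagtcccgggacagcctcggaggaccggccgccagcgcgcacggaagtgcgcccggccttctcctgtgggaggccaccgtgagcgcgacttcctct

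Itga5 held 0 such boxes and Itgav 1. Over all 32851 RefSeq windows of this length, 52.0% held CACCC on either strand, and 29 of the 41 windows of members did (70.7%). GGGCGG, the GC box, was present in 46.3% of the windows of members and 32.7% of all windows. TGANTCA, the AP-1 site, was present in 2.44% and 6.75%, and GGAATG, a TEAD-type site, in 9.76% and 12.6%. The windows of members were richer in G and C, with a median of 60.8% against 52.4% over all windows. A match is a description of these letters and not of binding.

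Of the 3 alpha subunits that bind laminin, Itga6 and Itga7 were higher at D7. Itga6 (ENSMUSG00000027111.15, chromosome 2, 71745616 to 71858416) went from 1.33 FPKM at D0, with some 118 fragments, up to 15.6 FPKM at D7, with some 1177. Its ratio of 11.7 (9.70 to 14.3) was the highest of the members that reached FPKM 1 at both stages. Itga7 (ENSMUSG00000025348.9, chromosome 10, 128933818 to 128958282) stood at 5.67 FPKM at D0 against 17.4 at D7 (ratio 3.06, 2.75 to 3.41). An exon of Mettl7b on the opposite strand overlaps Itga7, so its value is uncertain if strand was not used in counting. Itga3, the third laminin receptor, was low at 1.21 and 0.879 (ratio 0.729, 0.539 to 0.981). The FPKM of Itga6 was thus 0.0119 times that of Itga5 at D0 and 0.543 times at D7, a comparison within each library that a common factor leaves as it is. Itga7 is also the laminin receptor of skeletal muscle, of whose 6 markers Myod1, Myf5, Pax7 and Ckm were listed at 0 in both libraries, Myog had 1 fragment at D7, and Acta1 was at 45.4 and 1.73. Itga6 and Itga7 are both expressed by Schwann cells. Of 5 Schwann cell markers 4 were higher at D7, beside 18.5% of all genes. The summed FPKM of the 5 markers was 5.46 at D0 against 11.6 at D7. Sox10 among them was at 0.588 and 2.16, and their part in Itga6 and Itga7 was not tested.

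Among the collagen-binding subunits, Itga11 (ENSMUSG00000032243.8, chromosome 9, 62677826 to 62783982), a receptor for fibrillar collagen in mesenchymal cells, was the most abundant alpha subunit in both libraries. It reached 137 FPKM at D0 against 53.1 at D7 (ratio 0.388, 0.375 to 0.401). Itga1, which also binds type IV collagen, stood at 9.79 FPKM at D0 against 6.81 at D7 and did not reach 2.0-fold (ratio 0.696, 0.650 to 0.745). Itga10, known from cartilage, was low and higher at D7, at 0.421 and 1.15 (ratio 2.73, 1.90 to 3.98), a call that was lost with a pseudocount of 1. Exons of Gm42957 overlap Itga10 on the same strand, and exons of Gm49395 overlap Itga1 on its strand. Itga2 rested on about 7 and 5 fragments, so no difference was detectable at this depth. Itga9, which binds tenascin C and osteopontin, was at 4.77 and 3.89 (ratio 0.816, 0.725 to 0.917). Its relative Itga4, the receptor for VCAM-1, stayed under FPKM 1 at 0.203 and 0.420 (ratio 2.07, 1.38 to 3.06).

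As shares of the summed FPKM of all 18 alpha subunits, RGD-binding subunits made up 53.8% at D0 and 37.6% at D7, and laminin-binding subunits 2.35% and 20.2%. Collagen-binding subunits made up 42.1% and 36.4%. Itga5 alone went from 32.03% to 17.1%. The summed FPKM of the alpha subunits was 349 at D0 against 168 at D7, so the laminin receptors gained share in a smaller total. The summed FPKM of the laminin-binding subunits itself was 8.21 and 33.9.

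**Figure D3:**
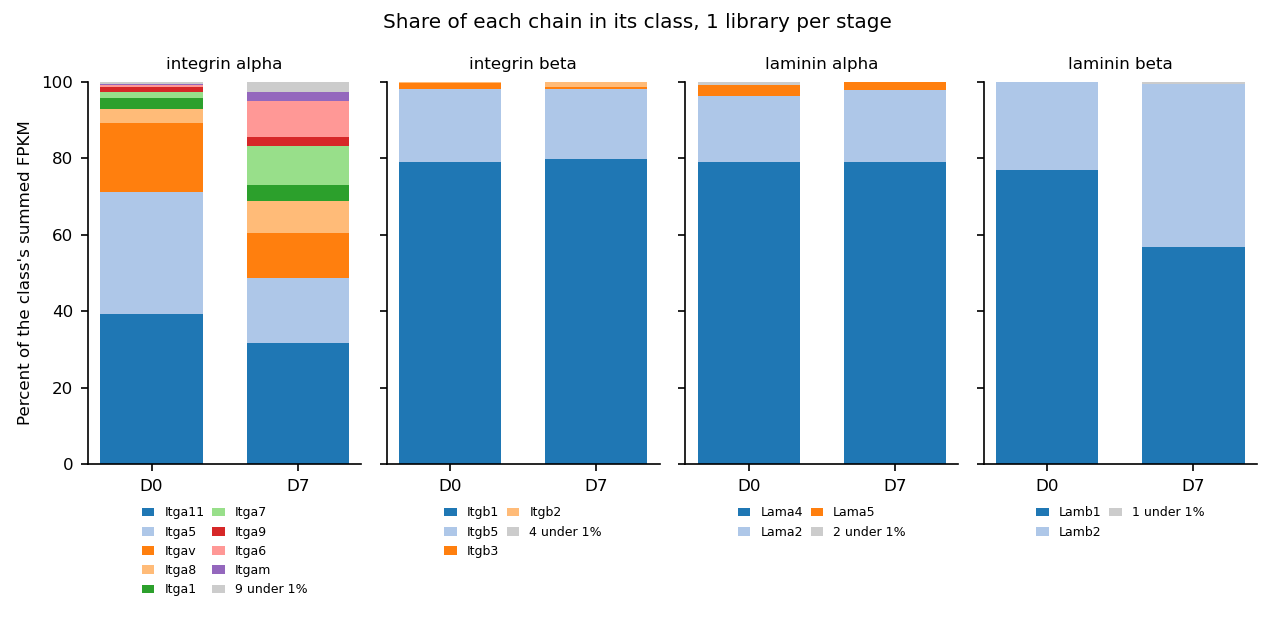
Stacked bars of the share of each integrin subunit or laminin alpha or beta chain in the summed FPKM of its class at D0 and D7, in percent, 1 library per stage, with chains under 1% in both pooled in grey. Itga6 and Itga7 widen from 0.381% and 1.63% to 9.30% and 10.3%, Lamb2 widens from 23.0% to 42.4%, and the integrin beta and laminin alpha bars hardly change.

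The 2 most abundant beta subunits kept their shares in a lower total, which was 571 FPKM at D0 against 376 at D7. Itgb1, the common partner of most alpha subunits, was the most abundant of all 51 genes in both libraries. It reached 451 FPKM at D0 against 299 at D7 (ratio 0.663, 0.652 to 0.675) and did not reach 2.0-fold. Itgb5, a partner of Itgav, stood at 109 at D0 against 69.0 at D7 (ratio 0.632, 0.607 to 0.658), and was lower by over 2.0-fold only under the division by library medians. Itgb1 made up 79.1% of the summed beta FPKM at D0 and 79.7% at D7. Itgb3 (ENSMUSG00000020689.4, chromosome 11, 104608000 to 104670476), the partner of Itgav in the vitronectin receptor of spreading cells, stood at 7.91 FPKM at D0 against 1.64 at D7. Its ratio of 0.208 (0.175 to 0.245) was the lowest of the 36 genes that reached FPKM 1 in a library and were above 0 in both. Itgb4, which pairs with Itga6 in hemidesmosomes of epithelia, was low and moved opposite to it, from 0.605 to 0.224 (ratio 0.370, 0.219 to 0.578). The epithelial list had a summed FPKM of 0.320 at D0 against 0.111 at D7. Itgb8 was at 0.160 and 0.395 (ratio 2.47, 1.56 to 4.04), and Itgb6 was listed at 0 in both libraries, with limits of 0.0302 and 0.0355.

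Leukocyte subunits and their kindlin were low. Of these 8 genes, 5 were higher at D7, 1 was lower and 1 was listed at 0 in a library. Over all genes above 0 in both libraries, 18.5% were higher and 13.2% were lower. Itgam (ENSMUSG00000030786.18, chromosome 7, 128062640 to 128118491), the alpha subunit of the complement receptor of macrophages, stood at 0.963 FPKM at D0 against 4.07 at D7 (ratio 4.22, 3.35 to 5.38). Its partner Itgb2 stood at 1.61 at D0 against 4.82 at D7 (ratio 2.99, 2.34 to 3.8). Fermt3, the kindlin of blood cells, stood at 0.561 at D0 against 3.92 at D7 (ratio 6.98, 4.69 to 10.7). Exons of Gm49368 on the same strand overlap Itgam, and exons of Trpt1 on the opposite strand overlap Fermt3. These proteins work together on myeloid cells, where the kindlin activates the integrin through its beta tail. Itgal, the lymphocyte subunit, was at 0.0554 and 0.2499 (ratio 4.51, 1.79 to 13.5), and Itgax at 0.0605 and 0.0712 on about 5 fragments each. Itgad was listed at 0 at D0 and had about 4 fragments at D7.

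Itgae stood apart from this group. It is the subunit of lymphocytes and dendritic cells that binds E-cadherin, and its known partner is Itgb7. It went from 0.0255 FPKM at D0, with some 2 fragments, up to 1.05 FPKM at D7, with some 70 (ratio 41.2, 11.0 to 347). Itgb7 had 0.149 and 0.0220, or some 8 fragments and 1 fragment, so that 1 lies inside its interval of 0.00332 to 1.097. The T and B cell markers Cd3d, Cd3g and Ms4a1 were listed at 0 in both libraries, and the summed FPKM of that list of 7 genes was 0.376 at D0 against 0.135 at D7. E-cadherin (Cdh1) was at 0.0220 and 0.0388. With a pseudocount of 1, Itgae no longer reached 2.0-fold.

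Macrophage markers moved in the same direction as Itgam, Itgb2 and Fermt3. All 15 were above 0 in both libraries, and 14 passed 2.0-fold upwards, beside 18.5% of all genes. The summed FPKM of the 15 markers was 162 at D0 against 618 at D7, a ratio of 3.82. The 7 leukocyte integrin subunits and Fermt3, 8 genes together, had a summed FPKM of 3.43 at D0 against 14.3 at D7, a ratio of 4.16. Lyz2 made up 111 and 286 of the marker sums, with a ratio of 2.575 (2.46 to 2.695). Ratios of single markers ran from 1.06 (Cd14) to 121 (Cd163, with about 1 fragment at D0). Emr1, which encodes the surface antigen that defines mouse macrophages, was at 1.40 and 14.3. No macrophage marker was listed at 0. The part of macrophages in the values of Itgam, Itgb2 and Fermt3 was not tested.

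**Figure D4:**
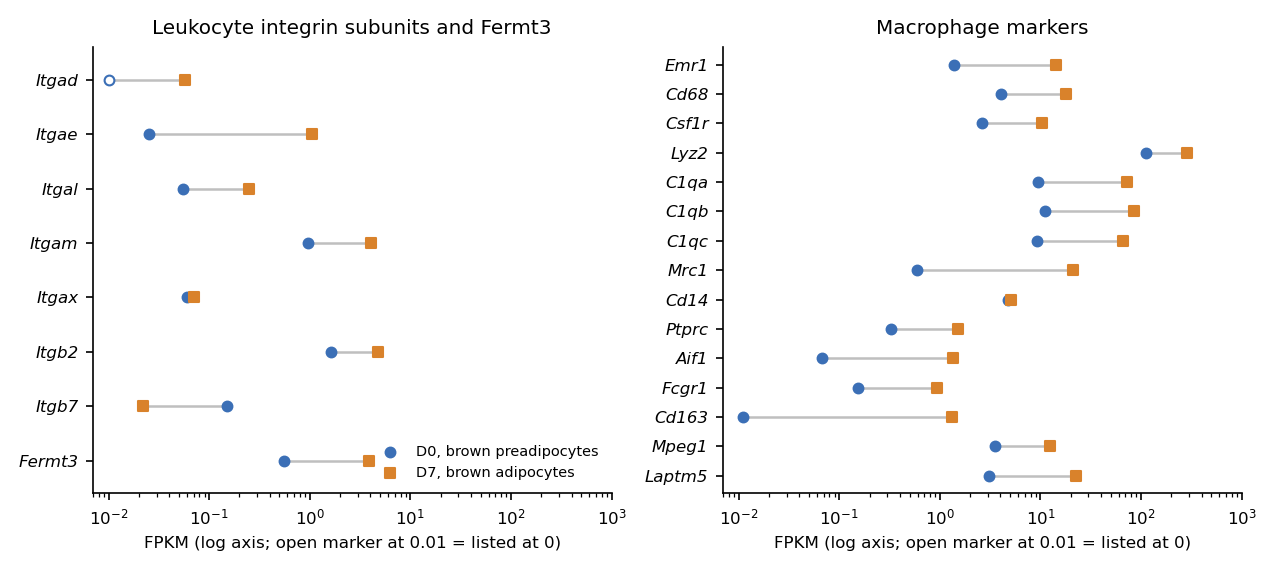
FPKM on a log axis at D0 (circles) and D7 (squares) of 8 leukocyte integrin subunits and adaptors (left) and 15 macrophage markers (right), with an open marker for a gene listed at 0. Fermt3 moves from 0.561 to 3.92 and Emr1 from 1.40 to 14.3, whereas Cd14 is at 4.81 and 5.08, and the points of Itgb7 rest on about 8 fragments and 1 fragment.

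The upstream windows of Itgam (chr7:128062390-128062639, plus strand) and Fermt3 (chr19:7019470-7019719, minus strand) are printed for comparison with those of Itga5 and Itgav. Capitals again mark CACCC or GGGTG.
Itgam: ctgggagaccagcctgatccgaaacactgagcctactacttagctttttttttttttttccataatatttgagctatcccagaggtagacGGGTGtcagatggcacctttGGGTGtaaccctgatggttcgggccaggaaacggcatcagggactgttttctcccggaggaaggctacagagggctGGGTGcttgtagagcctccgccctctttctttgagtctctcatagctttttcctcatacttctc
Fermt3: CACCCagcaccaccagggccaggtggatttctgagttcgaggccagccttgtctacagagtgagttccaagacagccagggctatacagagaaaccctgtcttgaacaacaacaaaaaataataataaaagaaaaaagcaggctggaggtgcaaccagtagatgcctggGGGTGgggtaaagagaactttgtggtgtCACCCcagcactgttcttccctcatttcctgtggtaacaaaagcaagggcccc

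Both held 3 such boxes, and their GC contents of 49.6% and 50% lay below the 55.6% of Itga5 and the 64.4% of Itgav. Of the other members past 2.0-fold with FPKM of at least 1 in a library, Fermt2, Itga11 and Itga10 have windows that hold an annotated exon, and each of these windows held 0 boxes. Lamb3, listed at 0 at D0, has 2 windows that hold an annotated exon, with 3 boxes each. Among members past 2.0-fold but under FPKM 1 in both libraries, the windows of Itga4 (higher) and Itgb7 (lower) held 4 each. That of Itgb8 (higher) held 2, and the windows of Itgb7 and Itgb8 hold an annotated exon. The number of boxes is a description only.

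Laminins are trimers of an alpha, a beta and a gamma chain, and 4 of the 5 abundant chains, all but Lamb1, had ratios between 1.47 and 1.71. Lama4, the main alpha chain of adipose tissue and vessels, stood at 57.9 FPKM at D0 against 84.9 at D7 (ratio 1.47, 1.42 to 1.51). Lama2, the alpha chain of muscle and nerve, stood at 12.6 at D0 against 20.2 at D7 (ratio 1.61, 1.53 to 1.69). Lamc1, the gamma chain of nearly all laminins, stood at 65.5 at D0 against 107 at D7 (ratio 1.63, 1.59 to 1.67). None of the chains at FPKM 1 or more at both stages reached 2.0-fold, yet the intervals of these 3 chains lay above 1. Under the division by library medians each of their ratios stayed above 1. Lama4 made up 79.0% of the summed alpha chain FPKM at D0 and 78.9% at D7, so the makeup of alpha chains was nearly the same. Of 8 markers of endothelium, whose cells also make Lama4, 2 were higher (Kdr and Tek) and 2 lower (Cdh5 and Egfl7). Over all genes, 18.5% were higher and 13.2% lower. The 8 markers summed to 5.45 and 4.25, of which Egfl7 made up 3.83 and 1.56, and their part in Lama4 was not tested.

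The main beta chains differed in direction, and their levels came closer. Lamb1 stood at 140 FPKM at D0 against 95.4 at D7 (ratio 0.684, 0.667 to 0.701). Lamb2, the beta chain of synapses, kidney filters and mature vessels, stood at 41.7 at D0 against 71.2 at D7 (ratio 1.71, 1.65 to 1.77). The FPKM of Lamb1 was thus 3.35 times that of Lamb2 at D0 and 1.34 times at D7. This change in the ratio of the beta chains needs no scaling between the libraries. Lama5, the alpha chain of many adult epithelia and vessels, was at 2.15 and 2.23 with an interval that includes 1 (ratio 1.04, 0.914 to 1.18).

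The other chains were low. Lamb3 (ENSMUSG00000026639.18, chromosome 1, 193207699 to 193343878), a beta chain of epithelia, had no fragment at D0 and some 87 at D7, where its FPKM was 1.23. It was at least 34.1-fold higher against the limit of 3 fragments at D0. Lama3 had about 8 and 16 fragments, which leaves 1 inside its interval of 0.9496 to 6.35. Lama1, the laminin alpha chain of the early embryo, was under FPKM 1 at 0.673 and 0.194 (ratio 0.287, 0.190 to 0.423). Lamc3 rested on about 4 and 11 fragments, with bounds from 0.958 to 13.9.

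The proteins that link laminin to the rest of the basement membrane were abundant and differed by less than 2.0-fold. Nid1, which bridges laminin and type IV collagen, stood at 250 FPKM at D0 against 219 at D7 (ratio 0.879, 0.864 to 0.894). Nid2 had 35.9 and 39.99 (ratio 1.11, 1.06 to 1.17), which turned below 1 under the division by library medians. Perlecan (Hspg2), a heparan sulfate proteoglycan, stood at 116 at D0 against 77.0 at D7 (ratio 0.663, 0.651 to 0.675). Agrin (Agrn), which joins laminin to dystroglycan, had 13.4 and 11.7 (ratio 0.874, 0.816 to 0.936). The FPKM of these 4 linkers summed to 415 at D0 and 348 at D7.

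Dystroglycan (Dag1, ENSMUSG00000039952.15, chromosome 9, 108204634 to 108263958), the main laminin receptor outside the integrin family, stood at 54.3 FPKM at D0 against 88.3 at D7. Its ratio of 1.63 (1.57 to 1.69) was like that of Lamc1. In a list of 24 genes of other laminin receptors and the dystrophin complex, 23 were above 0 in both libraries. Of these, 7 were higher and 1 lower by at least 2.0-fold, beside 18.5% and 13.2% of all genes. Among the 7, 6 reached FPKM 1 in a library. The other had about 1 fragment and 2 fragments, with an interval that includes 1. The sarcoglycan Sgcd stood at 6.91 at D0 against 24.9 at D7 (ratio 3.61, 3.09 to 4.24). Cd151, a tetraspanin that binds laminin-binding integrins, stood at 71.1 at D0 against 206 at D7 (ratio 2.90, 2.77 to 3.04). The lower gene was the syndecan Sdc3, at 91.3 and 25.7 (ratio 0.282, 0.269 to 0.295).

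Of 25 basement membrane collagens and other matrix partners, all above 0 in both libraries, 6 were higher and 3 lower, beside 18.5% and 13.2% of all genes. Collagens of the outer face of basement membranes were higher, with Col15a1 at 2.46 and 9.77 (ratio 3.98, 3.47 to 4.59) and Col18a1 at 7.48 and 23.4 (ratio 3.12, 2.87 to 3.40). Fbln2, a fibulin, was at 1376 and 313 (ratio 0.228, 0.225 to 0.231). Tinagl1 had a ratio of 0.290 (0.262 to 0.319) and Fbln1 of 0.410 (0.377 to 0.447). The type IV collagen chains Col4a1 and Col4a2, named for their role after their values were seen, had ratios of 1.52 (1.501 to 1.54) and 1.56 (1.54 to 1.58). Of the other type IV chains, Col4a5 was at 36.0 and 24.2 (ratio 0.671, 0.640 to 0.703) and Col4a6 had a ratio of 0.582 (0.403 to 0.831). Col4a3 and Col4a4 had at most 9 fragments in a library, and their intervals include 1.

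**Figure D5:**
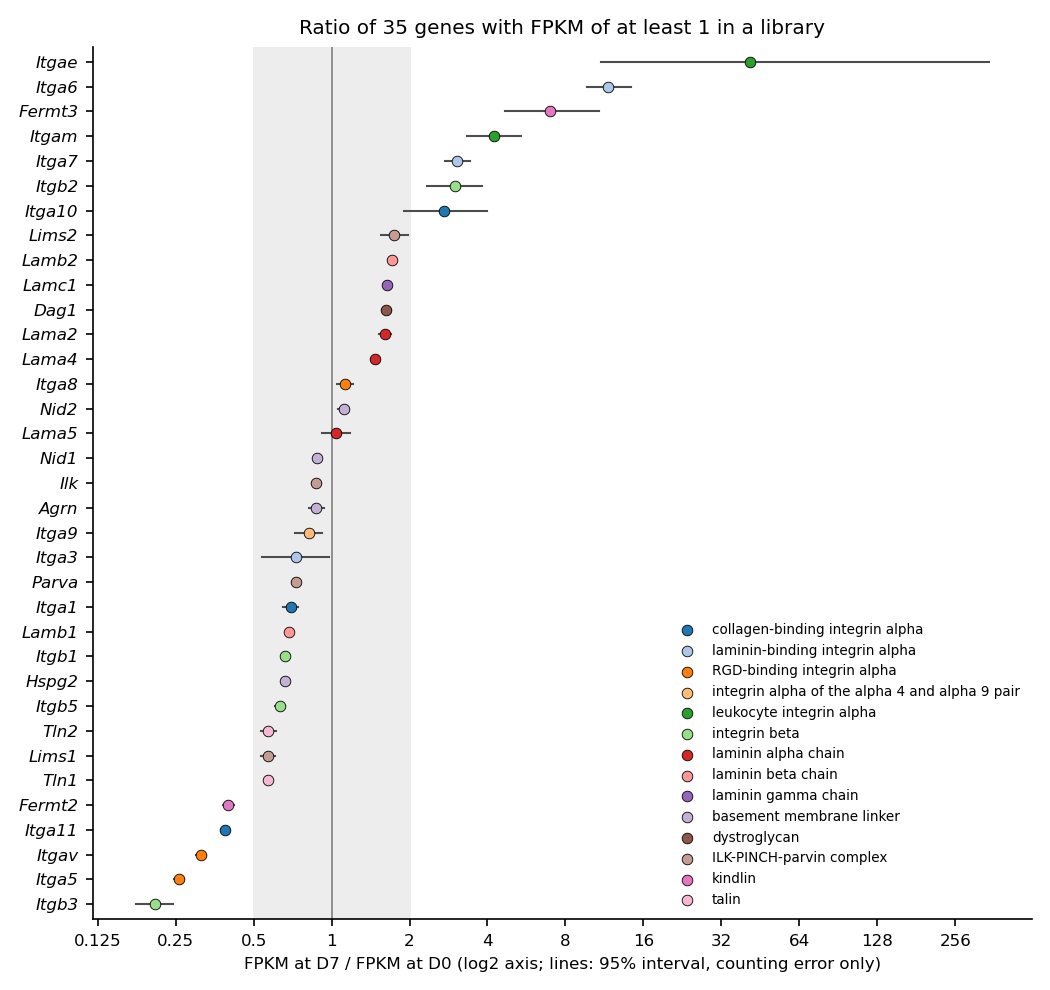
Ratio of FPKM at D7 to D0 on a log2 axis for 35 of the 36 genes with FPKM of at least 1 in a library and above 0 in both, coloured by role, with lines for the 95% interval of counting error and a grey band between 0.5 and 2. Itgae (41.2) and Itga6 (11.7) are at the top and Itgb3 (0.208) at the bottom, and linkers and abundant laminin chains lie within the band.

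Of the 8 adaptors above 0 in both libraries, 6 had a ratio below 1, beside 7401 of all 14986 genes. Fermt2 (ENSMUSG00000037712.16, chromosome 14, 45458795 to 45530118), the kindlin of most tissues, stood at 93.9 FPKM at D0 against 37.5 at D7 (ratio 0.399, 0.380 to 0.419). It was the single adaptor called lower. Tln1, the talin of most cells, stood at 84.7 at D0 against 48.2 at D7 (ratio 0.569, 0.553 to 0.585). Tln2, the talin of muscle and brain, had 9.76 and 5.56 (ratio 0.570, 0.532 to 0.611). The talins kept their proportion, with Tln1 at 8.68 times the FPKM of Tln2 at D0 and 8.67 times at D7. Both were lower by over 2.0-fold under the division by library medians. The kindlins did not keep their proportion, since Fermt2 was at 167 times Fermt3 at D0 and 9.57 times at D7. Fermt1, the kindlin of epithelia, was listed at 0 in both libraries, with limits of 0.0295 and 0.0347.

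In the ILK complex, the 2 PINCH genes changed places. Lims1 stood at 33.1 FPKM at D0 against 18.9 at D7 (ratio 0.569, 0.534 to 0.607), which became lower by over 2.0-fold under the division by library medians. Lims2 stood at 12.6 at D0 against 21.96 at D7 (ratio 1.75, 1.55 to 1.97). Lims1 made up 72.5% of their summed FPKM at D0 and 46.2% at D7, and Lims2 the remainder. An exon of Gpr17 on the opposite strand overlaps Lims2. Ilk, the scaffold that both proteins bind, stood at 182 at D0 against 159 at D7 (ratio 0.874, 0.842 to 0.908), and exons of Rrp8 and Taf10 overlap it on the opposite strand. Parva, the actin-binding parvin, had 105 and 76.7 (ratio 0.728, 0.704 to 0.751).

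In a list of 39 partners in adhesion complexes, all above 0 in both libraries, 15 were lower and 3 higher by at least 2.0-fold, with a median log2 ratio of -0.59. The share of lower genes, 15 of 39, stood beside 13.2% of all genes. The LIM protein Tes was at 93.0 and 11.2 (ratio 0.120, 0.109 to 0.132) and alpha-actinin 1 (Actn1) at 287 and 64.4 (ratio 0.224, 0.217 to 0.231). Higher were the kinase Ptk2b, at 5.58 and 19.5 (ratio 3.50, 3.11 to 3.93), and the tensin Tns1, at 50 and 125 (ratio 2.5, 2.44 to 2.56). The third, Lpxn, a paxillin relative of blood cells, was at 0.530 and 2.79.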

How the data were processed

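RNA-Seq was analysed in 1 library at D0 and 1 at D7. The authors filtered adaptor, low-quality and duplicate reads, aligned with SOAP2 to mm10 and removed reads matching rRNA, whereas the submitters' processing notes name Bowtie2. They deposited 1 FPKM value per gene and library. Whether counting used strand is not given in the sources used here. Of 27324 rows, 3963 held no value and were not used. No value column was left unmatched (0).

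FPKM ratios were used without pseudocount or rescaling. Fragments were recovered from 649 single-exon genes of at least 600 bp, whose ends differed from GENCODE M21 by at most 500 bp. With 179 bp (D0) and 182 bp (D7) taken from each length, 98.9% of 93 values at D0 and 99.0% of 99 at D7 of up to 20 fragments were whole within 0.1. Fragments of members, which have several exons, are approximate. Of the 51 members, 18 share exon sequence with another gene, 4 of them on the same strand. Not every overlap is named above. Recovery and intervals were tested on simulated data. Members and lists were chosen with earlier results of these data known.

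Members are named except 1, which, like some genes of the lists, is counted but not reported here. Full values are given at FPKM of at least 1 in a library. Of partner lists, up to 3 genes per direction that reached FPKM 1 in both libraries are named by size of ratio. Lpxn, Vtn, Col4a5 and Col4a6 and single markers were named after their values were seen. Alternatives were pseudocounts of 0.1 and 1, an FPKM filter of 1, TPM, median ratio, upper quartile and a 4.0-fold threshold. Division by library medians after raising FPKM to at least 0.01 was added after the data had been seen. Calculations used scipy 1.17.1, pandas 2.3.3 and numpy 2.4.6 under Python 3.11.15, and plots matplotlib 3.10.9.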

Additional observations from a re-analysis of the deposited data

How the results depend on the processing

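TPM, median ratio centring and the upper quartile left the 12 higher and 8 lower members and each member's side of 2.0-fold as they were. Pseudocounts and the floor of 0.01 give a ratio to all 51 members and 23361 genes, in place of 47 and 14986. A pseudocount of 0.1 gave 9 higher and 8 lower members, beside 2638 and 1788 of all genes. A pseudocount of 1 gave 6 and 5 members, beside 1533 and 1021 of all genes. The filter at FPKM of 1 gave 7 and 5 of 36 members, beside 1870 and 1430 of 11967 genes. A threshold of 4.0-fold gave 5 and 2 members, beside 1211 and 578 of all genes. With the floor of 0.01 and the library median, chosen after seeing the data, 11 members were higher and 12 lower. Over all genes, 2836 were higher and 3832 lower. Itgb5, Lims1, Tln1 and Tln2 then passed 2.0-fold, and Itga8, Lama5 and Nid2 turned below 1. The median log2 ratio of members was -0.19 with the filter, -0.21 with TPM, -0.13 with median centring, -0.23 with the upper quartile and -0.35 with the floor. It was 0 with either pseudocount, which count members listed at 0 in both libraries. The largest shift of all genes was that of the floor setting, -0.35. No paired analysis was possible because each stage has 1 library, and leaving out a replicate was not possible for the same reason. Where few fragments lay behind a value, depth set the limit, and the intervals of Itgb7, Lama3 and Lamc3, past 2.0-fold in ratio, included 1.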

Other observations

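Several genes next to the adhesion system were named after their values were seen. Itgbl1, which encodes a secreted protein with integrin beta-like repeats and lies outside the subunit families, stood at 9.09 FPKM at D0 against 106 at D7. Its ratio of 11.6 (95% interval 10.8 to 12.6, counting error only) was close to that of Itga6. Smoc1, a SPARC-related protein of basement membranes, stood at 0.878 FPKM at D0 against 40.7 at D7 (ratio 46.4, 36.3 to 61.3), whereas its relative Smoc2 had 28.4 and 52.8 (ratio 1.86, 1.74 to 1.98). Sntb1, a syntrophin of the dystrophin complex, stood at 0.849 at D0 against 17.8 at D7 (ratio 21, 17.0 to 26.5). Its relative Sntb2 had 12.03 and 13.4 (ratio 1.115, 1.054 to 1.18). Both of these syntrophins thus had ratios above 1 without rescaling, whereas the PINCH genes differed in direction. The log2 ratio of Sntb2, 0.16, was smaller in size than the shift of -0.35 under the division by library medians.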
